A study of Mus musculus with 19 samples.

Results

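The genes described here encode the subunits and inhibitors of NF-κB, a family of transcription factors of immune cells. They were taken by name from a list of 10 genes: the subunits Nfkb1, Nfkb2, Rel, Rela and Relb, the inhibitors Nfkbia, Nfkbib and Nfkbie, the nuclear inhibitor-like protein Nfkbiz, and the ubiquitin-editing enzyme Tnfaip3. Of these, 9 were measured, among 19752 genes in all, each by 1 probe set with a single gene symbol (Nfkb2 10463599, Rel 10384725, Rela 10460631, Relb 10560575, Nfkbia 10400405, Nfkbib 10561516, Nfkbie 10445412, Nfkbiz 10439936 and Tnfaip3 10368144). Nfkb1 was not analysed here.

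The cells were natural killer (NK) cells, innate lymphocytes that kill infected or transformed cells, enriched by negative selection from the spleens of male C57BL/6 mice aged 6 weeks. RNA from 19 samples was hybridized to 1 Affymetrix Mouse Gene 1.0 ST array each. Untreated cells (n = 3) were compared with cells given interleukin 2 (IL-2) at 250 U/ml for 8 h (n = 4). The other samples received the same IL-2 together with a JAK3 inhibitor at 0.25, 1 or 4 µM (n = 2 each), or a JAK1 inhibitor at 0.25 or 1 µM (n = 2 each) or at 0.0625 or 4 µM (n = 1 each). Both inhibitors are known here only by code names. The labels do not give a culture time for untreated replicate 2, and nothing in them ties a sample to its own mouse or culture. P-values therefore measure only how these samples spread, and part of that spread may be technical.

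In resting cells, NF-κB dimers are held in the cytoplasm by inhibitor of κB (IκB) proteins. Kinase complexes activated by cytokine, Toll-like or antigen receptors mark the IκB proteins for degradation, and the freed dimers enter the nucleus. Several inhibitors, among them Nfkbia and Tnfaip3, are themselves NF-κB target genes, which limits the response in time. IL-2 signals mainly through JAK1 and JAK3 to STAT5, and the comparisons ask how the transcripts of the NF-κB genes stood with IL-2 and when either kinase was inhibited.

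Nfkbiz was the one measured gene of the group whose transcript rose with IL-2, by 0.77 ± 0.16 (SE) on the log2 scale, which is 1.71-fold. It fell against IL-2 alone at 1 and 4 µM of each inhibitor, by 0.62 to 0.88, the 4 µM JAK1 inhibitor group being 1 sample. In order of dose these calls were lost in 5 of 15 and 4 of 14 other settings of the fit for the JAK3 inhibitor. For the JAK1 inhibitor they were lost in 9 of 15 and 6 of 12. At 0.25 µM the differences were of similar size (-0.59 for the JAK3 and -0.60 for the JAK1 inhibitor) but short of the threshold. Nfkbib, one of the cytoplasmic inhibitors, fell at 4 µM of the JAK3 inhibitor by 0.59 ± 0.14. The other 7 measured genes passed the test in no comparison, although the means of Rel and Tnfaip3 lay lower with IL-2 than in untreated cells, and higher than with IL-2 alone at each inhibitor dose from 0.25 µM up. All tests were limma fits over all genes and samples, with Benjamini-Hochberg adjustment over the 19752 genes and a threshold of 0.05.

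The arrays lay on 2 intensity scales. In the high-intensity set of 7 samples the log2 medians ran from 7.49 to 7.59, and in the low-intensity set of 12 samples from 5.70 to 5.90. A term for the set was in the fit, and the levels given below are log2 intensities with that term's value for the gene removed from the high-set samples (adjusted log2 intensity). The term was estimated on the same samples, so the spread within groups that hold both sets is slightly understated. Correlations between samples of a group ran from 0.962 to 0.994 over all genes, and IL-2 replicates 1 and 2 shared 891 identical deposited values. The other pairs within a group shared 0 to 7, and whether these 2 IL-2 samples are independent is not known. Both are in the group that every inhibitor dose was compared with. Within the arrays' intensities NK cell markers had a median percentile of 88.7, B cell markers 93.5, neutrophil markers 85.6, and markers of T cells, of macrophages and monocytes and of dendritic cells 63.5, 63.4 and 58.7. Probes differ in brightness, so these percentiles give no order of transcript levels between the lists.

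IL-2 against untreated cells gave 1 higher and 0 lower of the 9 measured genes. Over all genes, 6.56% were higher and 2.59% lower in this comparison, and 1 in 9 does not stand far from these shares. The unadjusted p was below 0.05 for 3 of the 9. Quantile normalization of the arrays gave 1 higher and 3 lower (Rel, Nfkbia and Tnfaip3) in place of 1 and 0.

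**Figure D1:**
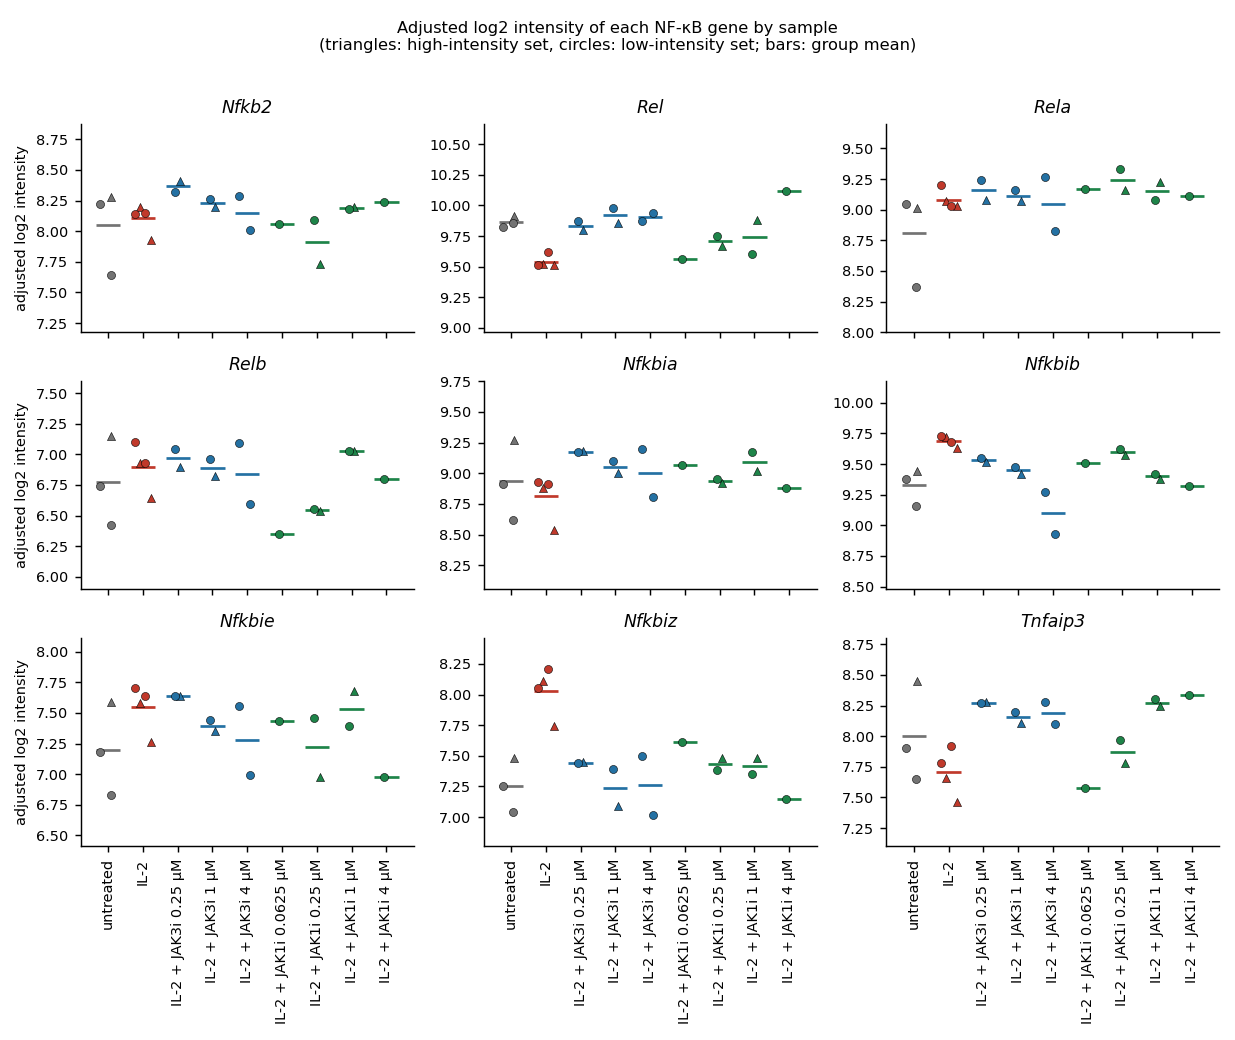
Adjusted log2 intensity (vertical axes, each spanning the same range) of the 9 measured NF-κB genes in the 19 samples, by treatment group. Triangles are samples of the high-intensity set, circles those of the low-intensity set, and bars are group means. All 4 IL-2 samples of Nfkbiz lie above all other samples, and untreated replicate 3 is the lowest untreated point for all genes but Rel.

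The subunits come first. Rel encodes c-Rel, a transactivating subunit prominent in lymphocytes. Its adjusted log2 intensity was 9.91, 9.86 and 9.82 in untreated replicates 2, 3 and 4, and 9.51, 9.52, 9.62 and 9.51 in IL-2 replicates 1 to 4. The 2 groups did not overlap, with untreated at 9.86 ± 0.05 (SD, n = 3) and IL-2 at 9.54 ± 0.06 (SD, n = 4). The difference was -0.32 ± 0.11, with a limma adjusted p of 0.0719, so it did not pass the threshold. It did pass after quantile normalization (-0.49, adjusted p 0.000598) and with dim genes left out (-0.32, adjusted p 0.0463). Across all settings the value kept its sign.

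Under the inhibitors, Rel measured 9.80 and 9.87 at 0.25 µM of the JAK3 inhibitor, 9.86 and 9.98 at 1 µM, and 9.94 and 9.87 at 4 µM. All 6 of these samples lay above the 4 IL-2 samples. With the JAK1 inhibitor it measured 9.56 at 0.0625 µM, 9.67 and 9.75 at 0.25 µM, 9.88 and 9.60 at 1 µM, and 10.12 at 4 µM. The last value was the highest of all 19 samples, and the sample at the lowest dose lay among the IL-2 samples. Differences from IL-2 were 0.30, 0.38 and 0.36 for the JAK3 inhibitor in order of dose and 0.02, 0.17, 0.20 and 0.58 for the JAK1 inhibitor. None passed the threshold in limma, with the 4 µM JAK1 sample closest (SE 0.16, adjusted p 0.0516). In order of group means, IL-2, 0.0625, 0.25 and 1 µM JAK1 inhibitor were lowest, then 0.25 µM JAK3 inhibitor, untreated, 4 and 1 µM JAK3 inhibitor, and 4 µM JAK1 inhibitor was highest. Neighbours in this order up to 1 µM JAK3 inhibitor were at most 0.15 apart, close to or below the standard errors of such differences.

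Rela encodes p65, the main transactivating subunit of the classical pathway. It ran from 9.03 to 9.20 in the 4 IL-2 samples, and measured 9.01, 8.37 and 9.05 in untreated replicates 2, 3 and 4. Its difference with IL-2 was 0.28 ± 0.16 (limma adjusted p 0.386), and untreated replicate 3 alone stood low. Group means with the inhibitors ran from 9.05 to 9.25, and the differences from IL-2 from -0.03 to 0.16.

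Relb, whose product pairs with the Nfkb2 product p52 in the alternative pathway, ran from 6.64 to 7.10 in the IL-2 samples and from 6.42 to 7.15 in the untreated ones. The 2 groups overlapped and differed by 0.13 ± 0.17 (limma adjusted p 0.770). The lowest value of all 19 samples was 6.35 at 0.0625 µM of the JAK1 inhibitor, followed by 6.42 in untreated replicate 3 and by 6.54 and 6.55 at 0.25 µM of the JAK1 inhibitor. At 1 µM of that inhibitor both samples were at 7.03. The differences from IL-2 of -0.55 ± 0.25 at 0.0625 µM (limma adjusted p 0.388) and -0.35 ± 0.19 at 0.25 µM (adjusted p 0.485) did not pass.

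Nfkb2 encodes the precursor of p52. It measured 8.28, 7.64 and 8.22 in untreated replicates 2, 3 and 4, and ran from 7.93 to 8.20 with IL-2, a difference of 0.06 ± 0.16 with an interval from -0.27 to 0.39 (95%). The highest samples of the series were those at 0.25 µM of the JAK3 inhibitor, at 8.41 and 8.32, and the lowest inhibitor sample was 1 of the 2 at 0.25 µM of the JAK1 inhibitor, at 7.73. No Nfkb2 difference from IL-2 passed in limma, the largest being 0.26 ± 0.18 at 0.25 µM of the JAK3 inhibitor (adjusted p 0.692).

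**Figure D2:**
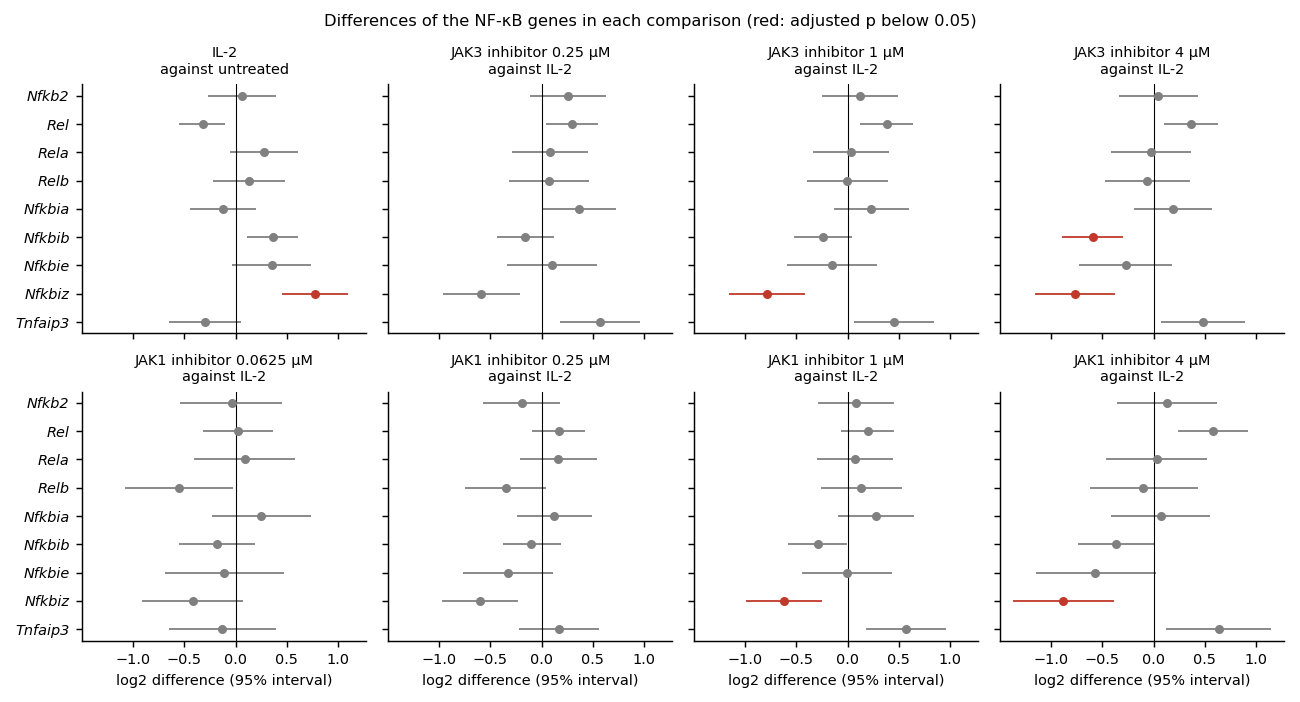
Log2 differences (horizontal axes) of the 9 measured NF-κB genes in IL-2 against untreated cells and in each inhibitor dose against IL-2, with 95% intervals from the limma fit. Red marks an adjusted p below 0.05: Nfkbiz at 0.77 for IL-2, and Nfkbiz or Nfkbib in 4 of the 7 inhibitor panels.

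Of the 3 cytoplasmic inhibitors, Nfkbib encodes IκBβ, which is degraded and remade more slowly than IκBα. It measured 9.44, 9.16 and 9.38 in untreated replicates 2, 3 and 4, and 9.63, 9.72, 9.68 and 9.73 in IL-2 replicates 1 to 4. All IL-2 samples were above all untreated samples, and the spread among them was narrow (SD 0.05). The difference of 0.36 ± 0.12 had a limma adjusted p of 0.0653. It passed with dim genes left out (adjusted p 0.0487) and without untreated replicate 2 (0.44, adjusted p 0.0352). It was 0.28 without untreated replicate 3 (adjusted p 0.166) and 0.17 after quantile normalization (0.143), neither past the threshold.

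With the JAK3 inhibitor Nfkbib measured 9.52 and 9.55 at 0.25 µM, 9.42 and 9.48 at 1 µM, and 8.93 and 9.27 at 4 µM. All 6 were below the IL-2 samples, and the 4 µM samples were the lowest pair with an inhibitor. Differences from IL-2 were -0.16 ± 0.13, -0.24 ± 0.13 and -0.59 ± 0.14 in order of dose, and only the last passed in limma (1.51-fold lower, adjusted p 0.0103). That call rests on the lower sample: without replicate 1 of the 4 µM JAK3 inhibitor group the difference was -0.42 with an adjusted p of 0.121. Replicate 1 also stood apart elsewhere, with a mean level of the T cell markers of 6.36 against 7.36 in replicate 2. Among the measured NF-κB genes it lay below replicate 2 in all but Rel (9.94 against 9.87), with Nfkbiz at 7.02 against 7.50. Whether its quality or cell content bears on these genes was not tested. The Nfkbib call was also lost when only the compared groups were fitted (-0.60, adjusted p 0.0824). Within the low-intensity set, which holds both 4 µM samples, it was lost as well (-0.60, adjusted p 0.235). With the JAK1 inhibitor Nfkbib measured 9.51, 9.57 and 9.62, 9.38 and 9.42, and 9.32 in order of dose, each sample below the IL-2 samples. No such difference passed, the largest being -0.37 ± 0.18 at 4 µM (adjusted p 0.329). In order of means, 4 µM JAK3 inhibitor was lowest at 9.10, then 4 µM JAK1 inhibitor at 9.32 and untreated at 9.33, and IL-2 alone highest at 9.69. The step from 4 µM JAK3 to 4 µM JAK1 inhibitor was 0.22 ± 0.19, with a 95% interval from -0.18 to 0.62. Later neighbours in this order were at most 0.09 apart, below the standard errors of such differences.

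Nfkbia encodes IκBα, the inhibitor that NF-κB itself induces most directly. It measured 9.27, 8.62 and 8.91 in untreated replicates 2, 3 and 4, and 8.54, 8.88, 8.91 and 8.93 with IL-2. The groups overlapped, and their difference was -0.12 ± 0.16 (limma adjusted p 0.770). IL-2 replicate 1 lay below the other 3, which ran from 8.88 to 8.93. Inhibitor samples ran from 8.81 to 9.20, and the difference from IL-2 was largest at 0.25 µM of the JAK3 inhibitor (9.18 and 9.17, difference 0.36 ± 0.17, limma adjusted p 0.394).

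Nfkbie encodes IκBε. It measured 7.59, 6.83 and 7.18 in untreated replicates 2, 3 and 4, and ran from 7.26 to 7.70 with IL-2. The difference was 0.35 ± 0.19 (limma adjusted p 0.340), and it turned on single samples. It was 0.61 without untreated replicate 2 (adjusted p 0.0349) and 0.16 without untreated replicate 3 (0.841). Within the high-intensity set it was -0.17. Untreated replicate 2 is the 1 untreated sample of that set and has no culture time in the labels. Sample, set and culture time can therefore not be told apart. The lowest inhibitor samples were at 6.98, once at 4 µM and once at 0.25 µM of the JAK1 inhibitor, and at 6.99 at 4 µM of the JAK3 inhibitor. The second sample of each of the 2 groups that hold 2 was at 7.46 and 7.56, so these groups spread widely. No Nfkbie difference from IL-2 passed in limma.

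Nfkbiz encodes IκBζ, a nuclear member of the IκB family that binds NF-κB p50 and takes part in turning on secondary response genes. Its adjusted log2 intensity was 7.48, 7.04 and 7.25 in untreated replicates 2, 3 and 4, and 7.74, 8.11, 8.21 and 8.05 in IL-2 replicates 1 to 4. The groups did not overlap, at 7.25 ± 0.22 (SD, n = 3) and 8.03 ± 0.20 (SD, n = 4). The difference of 0.77 ± 0.16 had a limma adjusted p of 0.0023. It was 0.99 within the low-intensity set (adjusted p 0.0411) and 0.45 within the high-intensity set, which holds 1 untreated and 2 IL-2 samples. That untreated sample is replicate 2, whose culture time is not given, so set and culture time cannot be told apart here.

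With the JAK3 inhibitor Nfkbiz measured 7.45 and 7.44 at 0.25 µM, 7.09 and 7.39 at 1 µM, and 7.02 and 7.50 at 4 µM. Every one of these samples lay below the lowest IL-2 sample and within or next to the untreated range. Differences from IL-2 were -0.59 ± 0.18 (limma adjusted p 0.0652), -0.79 ± 0.18 (1.73-fold lower, adjusted p 0.00748) and -0.77 ± 0.19 (1.71-fold lower, adjusted p 0.0109).

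With the JAK1 inhibitor Nfkbiz measured 7.61 at 0.0625 µM, 7.48 and 7.38 at 0.25 µM, 7.48 and 7.35 at 1 µM, and 7.15 at 4 µM. All 6 lay below the IL-2 samples. Differences from IL-2 were -0.42 ± 0.23 (limma adjusted p 0.474), -0.60 ± 0.18 (0.0926), -0.62 ± 0.18 (1.53-fold lower, 0.0478) and -0.88 ± 0.23 (1.84-fold lower, 0.0389), the last on 1 sample whose spread is assumed to be that of the other groups. At 4 µM the level was close to that of untreated cells, with a difference of 0.00 for the JAK3 inhibitor (95% interval -0.39 to 0.40) and -0.11 for the JAK1 inhibitor (-0.61 to 0.39).

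Single samples decided several of these Nfkbiz calls. At 1 µM of the JAK3 inhibitor the call was lost without replicate 1 of that group (-0.61, limma adjusted p 0.274). At 4 µM it was lost without replicate 1 of that group (-0.53, adjusted p 0.143) and without IL-2 replicate 3 (-0.69, adjusted p 0.0616). At 1 µM of the JAK1 inhibitor it was lost without IL-2 replicate 2, 3 or 4 or either sample of the group (-0.54 to -0.69 in these, adjusted p 0.111 to 0.659). At 4 µM of the JAK1 inhibitor it was lost without IL-2 replicate 2, 3 or 4 (-0.80 to -0.87, adjusted p 0.0733 to 0.127). Without IL-2 replicate 1, which is the lowest of the 4, the 0.25 µM doses of the JAK3 inhibitor (-0.69, adjusted p 0.0254) and of the JAK1 inhibitor (-0.70, adjusted p 0.0299) passed as well. Within the low-intensity set the differences at 1 and 4 µM were -0.74 and -0.87 for the JAK3 inhibitor (adjusted p 0.470 and 0.0900) and -0.78 and -0.98 for the JAK1 inhibitor (0.288 and 0.187). Within the high-intensity set they were -0.84 and -0.45 at 1 µM (0.758 and 0.835). The sign was negative in each of these.

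In order of Nfkbiz means, 4 µM JAK1 inhibitor was lowest, followed by 1 µM JAK3 inhibitor, untreated, 4 µM JAK3 inhibitor, 1 and 0.25 µM JAK1 inhibitor, 0.25 µM JAK3 inhibitor, 0.0625 µM JAK1 inhibitor and IL-2 alone. Neighbours among the first 8 were at most 0.17 apart, no more than their standard errors, and the step up to IL-2 from 0.0625 µM JAK1 inhibitor was 0.42 ± 0.23.

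**Figure D3:**
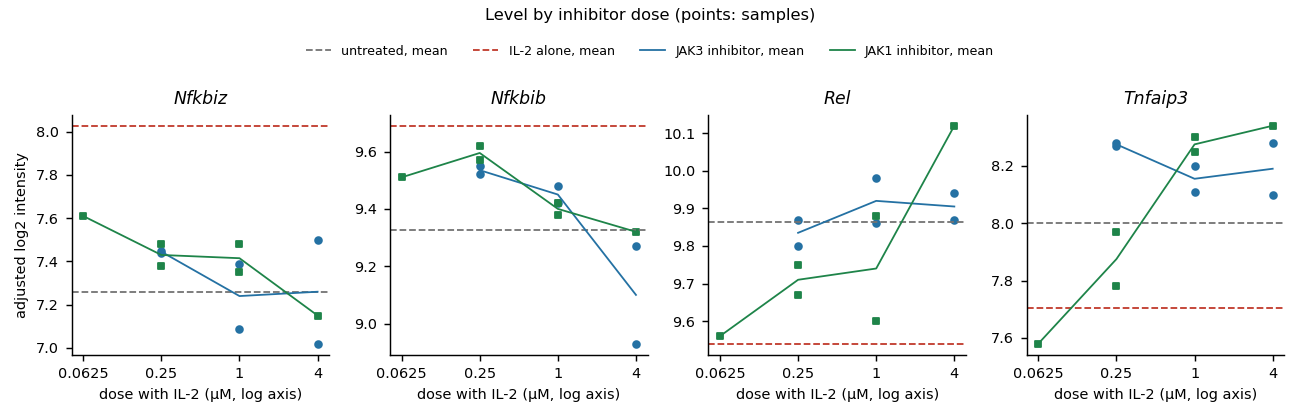
Adjusted log2 intensity (vertical axes, different ranges) of Nfkbiz, Nfkbib, Rel and Tnfaip3 against inhibitor dose (µM, log axis). Circles and squares are samples with the JAK3 and JAK1 inhibitor, solid lines join group means, and dashed lines are the means of untreated cells and of IL-2 alone; every Nfkbiz point lies below the IL-2 mean of 8.03.

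Tnfaip3 encodes A20, an enzyme that edits ubiquitin chains and restrains signalling to NF-κB. It measured 8.45, 7.65 and 7.90 in untreated replicates 2, 3 and 4, and 7.46, 7.66, 7.92 and 7.78 in IL-2 replicates 1 to 4. The groups overlapped, and the difference was -0.30 ± 0.17 (limma adjusted p 0.364). Leaving out 1 sample at a time moved it between -0.47 and 0.00, and it was 0.07 within the low-intensity set (adjusted p 0.879). Quantile normalization gave -0.48 with an adjusted p of 0.0062.

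With the JAK3 inhibitor Tnfaip3 measured 8.28 and 8.27 at 0.25 µM, 8.11 and 8.20 at 1 µM, and 8.10 and 8.28 at 4 µM, each above the highest IL-2 sample. With the JAK1 inhibitor it measured 7.58 at 0.0625 µM, 7.78 and 7.97 at 0.25 µM, 8.25 and 8.30 at 1 µM, and 8.34 at 4 µM. The samples at the 2 lower doses lay among or next to the IL-2 samples and those at the 2 higher doses above them. Differences from IL-2 were 0.57, 0.45 and 0.48 for the JAK3 inhibitor (SE 0.19 to 0.20, limma adjusted p 0.0994, 0.229 and 0.166). They were -0.13, 0.17, 0.57 and 0.64 for the JAK1 inhibitor (SE 0.19 to 0.25, adjusted p 0.864, 0.802, 0.0986 and 0.204), so none passed. After quantile normalization 5 of these 7 differences passed, those at each JAK3 inhibitor dose and at 1 and 4 µM of the JAK1 inhibitor. In order of means, 0.0625 µM JAK1 inhibitor and IL-2 were lowest, then 0.25 µM JAK1 inhibitor and untreated, and the other 5 inhibitor groups ran from 8.15 to 8.34, without a step beyond their standard errors.

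The promoters of Nfkbia, Tnfaip3 and Rel are shown as windows with κB motif matches, beside that of Nfkbib, which has none. The IL-2 means of the first 3 lay below the untreated ones, but Nfkbie and Nfkb2, with IL-2 means above untreated (0.35 and 0.06), had matches as well. None of these differences passed the threshold, and a link between matches and direction was not tested. Sequences are RefSeq's (GRCm38.p6), 5′ to 3′ on the gene's strand, and end at the base before the annotated start. Each of the 4 genes is on the minus strand: Nfkbia at chr12:55492648-55492825, Tnfaip3 at chr10:19015411-19015560 (the first of its 2 listed starts), Rel at chr11:23770970-23771119 and Nfkbib at chr7:28766645-28766794. Capitals mark matches, on either strand, to GGANTTTCC (N for any base) or to the 10-base κB consensus, which can overlap each other.
Nfkbia: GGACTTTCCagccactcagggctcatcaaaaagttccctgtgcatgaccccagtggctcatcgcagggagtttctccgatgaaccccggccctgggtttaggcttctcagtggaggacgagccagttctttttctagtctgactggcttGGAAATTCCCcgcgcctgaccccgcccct
Tnfaip3: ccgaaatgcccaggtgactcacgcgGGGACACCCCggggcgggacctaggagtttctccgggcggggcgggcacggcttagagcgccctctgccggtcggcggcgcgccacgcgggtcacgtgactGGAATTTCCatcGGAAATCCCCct
Rel: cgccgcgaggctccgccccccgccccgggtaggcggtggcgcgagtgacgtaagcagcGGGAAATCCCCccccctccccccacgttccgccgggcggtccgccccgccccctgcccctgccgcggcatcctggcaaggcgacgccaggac
Nfkbib: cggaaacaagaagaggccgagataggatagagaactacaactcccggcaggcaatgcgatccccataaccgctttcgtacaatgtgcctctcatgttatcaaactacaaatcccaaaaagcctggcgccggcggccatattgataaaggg

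Nfkbia had a GGANTTTCC match at -178 to -170 and another at -29 to -21, counted back from the start, the second inside a κB consensus match. Tnfaip3 had GGANTTTCC at -24 to -16 beside consensus matches at -12 to -3 and -125 to -116. Rel had overlapping consensus matches between -92 and -82, and the Nfkbib window had none of these motifs. Among 250 bases upstream of 32851 RefSeq starts, 1.07% held GGANTTTCC, 7.25% the κB consensus and 7.02% TTCNNNGAA, the core of the motif that STAT factors bind. Of the 10 genes, 7 had promoter entries, and 3 of these held GGANTTTCC (Nfkbia, Tnfaip3 and Nfkb2), 5 the κB consensus (these 3 with Rel and Nfkbie) and 1 TTCNNNGAA (Nfkb2, at -148 to -140 of its first listed start). A gene was counted if any of its listed starts matched (Nfkb2 has 3 and Tnfaip3 2), while the percentages are per start, so the 2 are unlike measures. Rela, like Nfkbib, had no match. Entries for Nfkbiz and Relb were not used here. A match describes these letters and no bound factor was measured.

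Against IL-2 alone, the JAK3 inhibitor gave 0 higher and 0 lower of the 9 genes at 0.25 µM, 0 and 1 at 1 µM, and 0 and 2 at 4 µM. The shares of all genes were 2.74% higher and 2.26% lower at 0.25 µM, 2.86% and 3.69% at 1 µM, and 3.01% and 4.50% at 4 µM. The JAK1 inhibitor gave 0 and 0 at 0.0625 and 0.25 µM, and 0 and 1 at both 1 and 4 µM. Here the shares of all genes were 0.00506% and 0.0152% at 0.0625 µM, 0.729% and 1.52% at 0.25 µM, 2.85% and 2.31% at 1 µM, and 1.14% and 2.63% at 4 µM. The counts of 1 or 2 in 9 are too small to be set apart from these shares. After quantile normalization the JAK3 inhibitor gave 3 higher and 1 lower, 2 and 1, and 2 and 2 in order of dose, and the JAK1 inhibitor 0 and 0, 0 and 1, 1 and 1, and 2 and 1, the higher ones being Rel, Nfkbia or Tnfaip3. Unadjusted limma p-values were below 0.05 for 3, 3 and 4 of the 9 genes at the JAK3 inhibitor doses and for 1, 1, 3 and 3 at the JAK1 inhibitor doses. These comparisons and that of IL-2 with untreated cells share the 4 IL-2 samples, so an opposite sign in them is not independent. Median differences of the 9 genes, from -0.11 to 0.13 in these 8 comparisons, lay near those of all genes, from -0.10 to 0.08.

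The 2 inhibitors were set against each other at the 3 doses they share and over the mean of 0.25 and 1 µM, which made 36 differences for the 9 genes. None passed in limma, and the unadjusted p was below 0.05 for 1 gene at 0.25 µM and for 0 at 1 µM, 4 µM and the mean. Of all genes, 0.451% were called in either direction at 0.25 µM (89 genes), 0% at 1 µM (167 genes with an unadjusted p below 0.05), 0% at 4 µM (532) and 0.213% over the mean. For Nfkbiz the JAK1 inhibitor stood at -0.01 of the JAK3 inhibitor at 0.25 µM (95% interval -0.44 to 0.41), 0.17 at 1 µM (-0.26 to 0.60) and -0.11 at 4 µM (-0.63 to 0.41). These intervals reach 0.60 or more on one side at the 2 higher doses, so they do not show that the inhibitors act alike. The 1 gene with an unadjusted p below 0.05 was Nfkb2 at 0.25 µM, with 7.73 and 8.09 under the JAK1 inhibitor and 8.41 and 8.32 under the JAK3 inhibitor (-0.45 ± 0.21, adjusted p 0.699). At that dose 7 of the 9 differences were negative and 2 positive. The next largest were those of Relb (-0.42, interval -0.88 to 0.03), Nfkbie (-0.42, -0.93 to 0.09) and Tnfaip3 (-0.40, -0.85 to 0.05), whose intervals all hold 0. In the same comparison 5 of 14 NK cell markers were higher and 6 of 13 macrophage and monocyte markers lower. No neutrophil, B cell, T cell or dendritic cell marker was called. The part of these cells in the differences was not tested. Against untreated cells, 4 µM of either inhibitor gave 0 of 9 called (0% of all genes for each, with 1714 and 1270 genes at an unadjusted p below 0.05), and 0 of the 9 had an unadjusted p below 0.05.

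The genes whose adjusted levels over the 19 samples were most like each NF-κB gene were found among all other genes. They were Naa25 for Nfkbiz (Pearson's r 0.974), Polr2c for Nfkbib (0.940), Rb1 for Rel (0.911), Adssl1 for Tnfaip3 (0.938), Angel2 for Nfkbia (0.928), Impa1 for Nfkbie (0.946), Rab19 for Rela (0.946), Trappc8 for Relb (0.952) and Plbd2 for Nfkb2 (0.917). Each is the highest of the values for all genes outside the group, over samples that share treatments and the scale term, and is a description.

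The wider pathway was read from 3 further lists. Their counts stand beside the shares of all genes given above, which for IL-2 were 6.56% higher and 2.59% lower. Counts of 1 in 23 or 2 in 15 are too small to be set apart from these shares. Upstream, among kinases and adaptors that lead to IκB degradation, 1 of 23 measured genes rose with IL-2 and 0 fell, with a median of 0.24 against -0.01 for all genes. The 1 was Rnf31, the catalytic subunit of the linear ubiquitin chain assembly complex (0.64 ± 0.18, limma adjusted p 0.031), and its call was lost in 8 of 16 alternatives. Ikbkb, which encodes a catalytic kinase of the IKK complex (-0.14), and Ikbkg, which encodes its regulatory subunit NEMO (-0.24), did not pass. At no inhibitor dose did a gene of this list pass, though quantile normalization called 1 to 4 of them at 5 of the 7 doses, and with IL-2 1 higher and 3 lower.

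Among 15 other IκB proteins and negative regulators, 2 rose and 2 fell with IL-2 in limma. Bcl3, a nuclear IκB protein like Nfkbiz, rose by 0.55 ± 0.16 (adjusted p 0.0348), and Otulin, which removes linear ubiquitin chains, by 0.55 ± 0.16 (0.0371); each call was lost in 9 of 16 alternatives. Tnip3, which encodes a partner of A20, fell by 1.04 ± 0.15 (adjusted p 6.51e-05), and Tnfaip8l2, an inhibitor of innate and T cell receptor signalling, fell by 0.53 ± 0.12 (0.00644). Tnip3 and Tnfaip8l2 were the 2 that rose at each JAK3 inhibitor dose and at 1 µM of the JAK1 inhibitor; there Tnip3 rose by 0.91, 1.05, 0.77 and 0.83, and Tnfaip8l2 by 0.56, 0.50, 0.71 and 0.60. Nfkbid, another nuclear IκB gene, fell by 0.69 ± 0.19 (adjusted p 0.0319) and 0.91 ± 0.20 (0.00549) at 1 and 4 µM of the JAK3 inhibitor, and at the same doses of the JAK1 inhibitor it stood at -0.15 and -0.42 from IL-2, short of the threshold. The Nfkbid call at 1 µM was lost in 9 of 15 alternatives and that at 4 µM in 3 of 14, and the Tnfaip8l2 calls at 0.25 and 1 µM of the JAK3 inhibitor were lost in 8 and 9 of 15. No gene of the list passed at 0.0625, 0.25 or 4 µM of the JAK1 inhibitor. Quantile normalization gave 2 higher and 3 lower with IL-2 and 2, 2 and 3 higher and 1, 3 and 3 lower at the JAK3 inhibitor doses; at 0.25, 1 and 4 µM of the JAK1 inhibitor it gave 1, 2 and 2 higher and 0, 1 and 1 lower.

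Of 30 genes listed here as NF-κB targets, 12 rose and 1 fell with IL-2, with a median of 0.20 against -0.01 for all genes. The list was chosen with earlier results of these data known, so a count above the share of all genes is a description and not a test. Over all genes, 6.56% were higher and 2.59% lower. The largest rises were in Tnfrsf9, a costimulatory receptor (3.43 ± 0.19), the chemokine genes Ccl3 (2.88 ± 0.23) and Ccl4 (2.52 ± 0.18), Ptgs2, the inducible cyclooxygenase (2.24 ± 0.22), the activation marker Cd69 (1.88 ± 0.18) and the transcription factor Irf1 (1.69 ± 0.20). Bcl2l1, which encodes the survival protein Bcl-xL, rose by 1.04 ± 0.13, Tnf by 0.88 ± 0.15 and Lta by 0.86 ± 0.14. Il1b, a cytokine gene of myeloid cells, fell by 1.25 ± 0.20 (limma adjusted p 0.000251). Many of these genes are also induced through STAT5 or other factors, and which factor acted was not measured. The list leaves out the NF-κB genes described above, among them the target genes Nfkbia (-0.12) and Tnfaip3 (-0.30), which did not pass. Of those left out, Nfkbiz alone passed with IL-2. The high-intensity set alone called 0 of the 30, the low-intensity set alone 9 higher and 1 lower, and quantile normalization 12 higher and 5 lower.

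Under the JAK3 inhibitor 9, 9 and 13 of the 30 targets were lower than with IL-2 and 3, 4 and 2 higher, in order of dose (11, 10 and 13 lower and 5, 5 and 5 higher after quantile normalization). With the JAK1 inhibitor 0, 6, 10 and 10 were lower and 0, 0, 3 and 1 higher (0, 9, 11 and 10 lower and 0, 3, 5 and 3 higher after quantile normalization). Tnfrsf9 fell by 3.42 ± 0.21 at 1 µM of the JAK3 inhibitor and stood at -2.53 ± 0.21 at 1 µM of the JAK1 inhibitor, and Cd69 at -2.06 ± 0.21 and -1.71 ± 0.21, all past the threshold. Genes higher with an inhibitor were Il1b, Mmp9, Ccr7 and Ebi3, of which the Ebi3 call at 1 µM of the JAK3 inhibitor was lost in 9 and the Mmp9 call at 1 µM of the JAK1 inhibitor in 8 of 15 alternatives; Il1b rose by 1.38, 1.17 and 1.61 across the JAK3 inhibitor doses. Median differences of the targets ran from -0.39 to 0.01. The shares of all genes at these doses reached at most 4.5% lower and 3.01% higher, both at 4 µM of the JAK3 inhibitor.

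**Figure D4:**
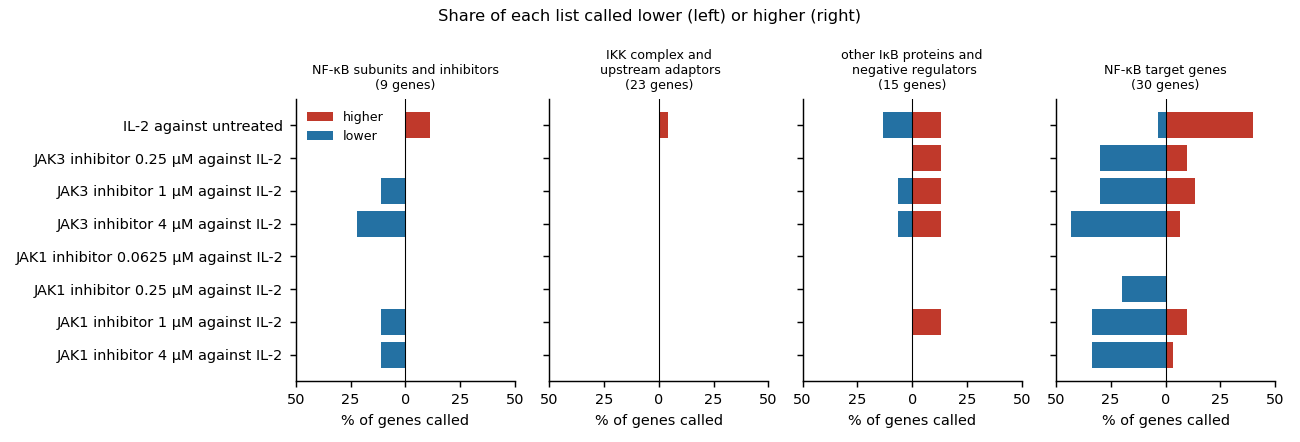
Share of genes (horizontal axes, percent of the measured genes of each list) that passed the limma threshold, higher to the right in red and lower to the left in blue, in 8 comparisons. The target list has calls in 7 of the 8, with 12 higher of 30 for IL-2, while the kinases and adaptors have 1 call in all. The lists were chosen with earlier results of these data known, and the target list leaves out Nfkbia and Tnfaip3.

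Markers of cell types moved in the same comparisons. Beside their counts, 6.56% of all genes were higher and 2.59% lower with IL-2. With IL-2, 11 of 14 NK cell markers rose (median 1.56), and the mean level of the list ran from 7.39 to 7.63 in untreated and from 8.59 to 9.0 in IL-2 samples. In the list of 13 macrophage and monocyte markers, 7 were lower and 1 was higher (median -1.08), and the list's mean level ran from 7.40 to 7.69 in untreated and from 6.21 to 6.55 in IL-2 samples. Of 10 neutrophil markers 6 fell (7.24 to 7.49 with IL-2, 8.12 to 8.51 untreated), as did 4 of 9 B cell markers (8.46 to 8.66 and 8.87 to 9.11), 2 of 8 dendritic cell markers, with 1 that rose, and 0 of 10 T cell markers. At 1 µM of the JAK3 inhibitor 12 NK cell markers fell and 7 macrophage and monocyte markers rose (3.69% of all genes were lower and 2.86% higher). The part of these cells in the values of the NF-κB genes, of Il1b and Mmp9, or of the targets was not tested. Mmp9 is in both the target list and the neutrophil list. In such bulk samples the number of cells of a type, their RNA content and the level of the markers within them cannot be told apart.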

How the data were processed

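The deposited table holds linear intensities that the authors made with Affymetrix Power Tools and RMA, per the submitters' processing notes, with no versions given. Of 24922 probe sets, 21425 had 1 gene symbol, 1399 had several and 2098 were not in the platform annotation; for 921 genes with several probe sets the brightest over all samples was used, which gave 19752 genes. Intensities were turned into log2. Detection calls were not used here, so brightness over background is unknown, and the number of arrays limits the precision.

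A single model over the 19 samples was made with limma 3.58.1 (R 4.3.3) (a mean per group, a term for the intensity-scale set, eBayes with trend; 9 residual and 10.5 prior degrees of freedom). Adjusted p-values are Benjamini-Hochberg over all genes. Intervals are 95%. A group with 1 sample takes its spread from the rest. The 2 sets of samples were recognised from the array medians. They follow the form of the sample titles except for 1 sample, replicate 1 of the 4 µM JAK3 inhibitor group, which lies in the low-intensity set. The fit was also run on simulated data with independent noise and effects larger than those of the NF-κB genes here. That run does not bear on smaller effects or on shifts shared by a whole sample.

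Genes named are all members of the group, the gene most like each, and from the pathway lists those that passed or stand as examples; Ikbkb and Ikbkg were chosen after their values were seen. The genes and lists were chosen with earlier results of these data known. Residuals of same-numbered samples of different groups had a median correlation of -0.01 (from -0.54 to 0.70 over 38 pairs). For different numbers it was 0.01 (from -0.81 to 0.54 over 84 pairs). No block was used in the main fit, but ranges this wide cannot exclude that the numbers pair some samples. Alternatives were quantile normalization, no trend, a filter on the dimmest 25% of genes, means over probe sets, a title-form term in place of the set term, each set alone, a replicate block, only the compared groups, and leaving out each sample. Promoters and figures were handled in Python 3.11.15 with pandas 2.3.3 and matplotlib 3.10.9.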

Additional observations from a re-analysis of the deposited data

Results flagged for a closer look

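In the 4 IL-2 samples, Rel in replicate 3 stood apart at an adjusted log2 intensity of 9.62, with the other 3 between 9.51 and 9.52. Its gap to the nearest sample was 0.889 of the group's range. Nfkbia in IL-2 replicate 1 stood apart at 8.54, with the other 3 between 8.88 and 8.93 and a gap of 0.88 of the range. Both exceed Dixon's 95% critical value for 4 samples, which chance alone passes in about 1 in 20 groups, and the 9 genes gave 9 such groups. Leaving out IL-2 replicate 3 or 1 did not bring Rel or Nfkbia past the threshold against untreated cells.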

How the results depend on the processing

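Of 1719 values of single NF-κB genes under the alternatives, 1500 kept their sign and side of the threshold, 30 lost a call, 36 gained one and 153 changed sign where neither setting called the gene. No called value of these genes changed sign. Numbers of the 9 genes called are given next for IL-2 against untreated, then for the JAK3 inhibitor at 0.25, 1 and 4 µM and the JAK1 inhibitor at 0.25, 1 and 4 µM against IL-2; as reported they are 1, 0, 1, 2, 0, 1 and 1. Quantile normalization gave 4, 4, 3, 4, 1, 2 and 3. Fitting only the compared groups gave 1, 3, 3, 1, 1, 2 and 3, and 1 gene, Nfkb2, between the inhibitors at 0.25 µM. Leaving out dim genes, where fewer genes are adjusted for, gave 3, 0, 2, 2, 0, 1 and 2. The title-form term gave 0, 0, 0, 3, 0, 0 and 0. The low-intensity set alone gave 1, 0, 0, 0, 0, 0 and 0, and the high-intensity set alone, which lacks the 4 µM doses, 0 throughout; both hold fewer samples. The replicate block gave 3, 0, 0, 0, 0, 0 and 0, and whether the numbers pair the samples is not known. With the block, Nfkbiz against IL-2 was -0.51 and -0.26 at 1 and 4 µM of the JAK3 inhibitor and -0.34 and -0.61 at those doses of the JAK1 inhibitor, and Nfkbib at 4 µM of the JAK3 inhibitor was -0.41 (adjusted p 0.164 to 0.685 over these 5); with IL-2, Nfkbib (0.40, adjusted p 0.0141) and Nfkbie (0.45, 0.0395) passed. Fits without the trend or with means over probe sets gave the reported numbers. Leaving out single samples gave 1 to 3, 0 to 1, 0 to 1, 0 to 2, 0 to 1, 0 to 1 and 0 to 1. Without untreated replicate 2 the IL-2 count was 3. At 0.0625 µM of the JAK1 inhibitor, and for the other comparisons between inhibitors and with untreated cells, it was 0 in every fit made. The causes of the other shifts were not tested.

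The Nfkbiz rise with IL-2 kept its call in 14 of 16 alternatives (0.45 to 0.99, adjusted p 2.44e-05 to 0.89), being lost with the title-form term (0.81, adjusted p 0.89) and in the high-intensity set. The same settings were applied to the pathway lists after the data had been seen. With IL-2, calls among the 30 target genes went from 13 to 6 under the title-form term and to 0 in the high-intensity set. Calls of Tnip3 and Tnfaip8l2 at 4 µM of the JAK3 inhibitor turned to -0.11 and -0.31, not called, under the title-form term, which puts 1 sample of that group on the other intensity scale. The calls of Rnf31, Bcl3 and Otulin were each lost in at least 8 of 16 alternatives. Brightness over background is unknown here, so nothing bounds how dim a transcript could still be measured.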
